A study of Mus musculus with 6 samples.

Results

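The 9 genes described here encode the machinery that moves calcium into and out of mitochondria. They are the pore subunit *Mcu* and its paralog *Mcub*, the regulators *Micu2*, *Micu3*, *Smdt1* and *Mcur1*, and the transport genes *Letm1*, *Slc8b1* and *Vdac1*. They were taken by symbol from the 56748 genes of the deposited tables, and all 9 passed the filter on low counts that left 16605 genes. *Mcub* was chosen by its lower level in the same contrast described here, and the other 8 were taken with it by function while that result was known. Differences of these 9 genes between the groups are therefore given as descriptions, without p-values.

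RNA was taken from whole uteri on day 4 of pregnancy at 1600 h, which precedes the attachment of embryos, from 3 control and 3 *Gp130* ecKO females mated with fertile males. The *Gp130* ecKO females carried floxed *Gp130* alleles and *Ltf*-iCre, a lactoferrin knock-in that drives recombination in the uterine epithelium, and *Ltf* is also expressed in some immune cells. The control females are labelled WT, and the study describes its controls as lacking iCre, with floxed or wildtype *Gp130*. All were sexually mature and labelled as C57BL/6, a background that the study's methods give as C57BL/6J. *Gp130* (*Il6st*) encodes the receptor subunit through which leukemia inhibitory factor and related cytokines signal. Nothing in the labels says how the uteri of a group relate beyond their replicate number, so the spread given is that between 3 uteri.

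Mitochondria take up calcium through the uniporter, a channel of the inner membrane. MCU subunits form the pore, EMRE (the product of *Smdt1*) ties the pore to its calcium-sensing gatekeepers, and MCUB is a pore subunit that joins the channel and lowers its conduction. Calcium in the matrix stimulates dehydrogenases that feed respiration, and an overload of it favors cell death, so the ratio of MCUB to MCU is regarded as a brake on uptake.

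The pore paralogs are shown here because their relative level is the quantity that differed between the groups, and reads have to separate them. *Mcub* (ENSMUSG00000027994) lies on the minus strand of GRCm39 at chr3:129707425-129763869, and *Mcu* (ENSMUSG00000009647) on the minus strand at chr10:59282806-59452522. Each stretch below is coding sequence of exon 6 of 8, read 5′ to 3′ on the gene's strand from the reference genome. The capitals mark the 4 codons of the DIME motif, the signature at the mouth of the pore. They encode residues 246 to 249 of 336 in MCUB and 260 to 263 of 350 in MCU. The *Mcub* stretch is at chr3:129710633-129710692 and the *Mcu* stretch at chr10:59290813-59290872.
Mcub: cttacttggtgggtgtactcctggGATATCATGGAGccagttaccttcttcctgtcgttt
Mcu: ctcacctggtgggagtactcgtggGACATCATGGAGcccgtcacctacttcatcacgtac

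These stretches differ at 13 of 60 bases and in 5 of the 20 residues they encode, with a longest shared run of 11 bases. Over their whole length the proteins share 142 of 332 aligned residues (42.8%), and no word of 25 bases is common to the coding sequences. No window of 75 bases, the read length, in the main *Mcub* transcript occurs in another gene on its strand. On the opposite strand 10.5% of these windows belong to *Casp6*, a caspase gene that overlaps the 3′ end of *Mcub*. *Casp6* differed by a log2 fold change of 0.09 (SE 0.22), with overlapping groups.

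*Mcub* had the lowest values of the 9 genes in the *Gp130* ecKO uteri on the CPM scale (reads scaled to library size with edgeR's TMM factors, not divided by length). It was at 30.02, 16.4 and 28.8 CPM in controls 1 to 3 and at 4.61, 3.38 and 2.98 CPM in *Gp130* ecKO 1 to 3. The groups did not overlap, and the lowest control was 3.55-fold above the highest *Gp130* ecKO uterus. The means were 25.1 ± 7.54 CPM in the control and 3.66 ± 0.85 CPM in *Gp130* ecKO (SD, n = 3 each). These levels rest on 742, 425 and 432 reads in the control and 102, 88 and 72 in *Gp130* ecKO. The fitted log2 fold change of *Mcub* was -2.77 (SE 0.33), which is 6.84-fold lower, and it ran from -2.98 to -2.59 when each uterus was left out in turn. Among the 16605 genes tested it was the 94th lowest log2 fold change.

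**Figure D1:**
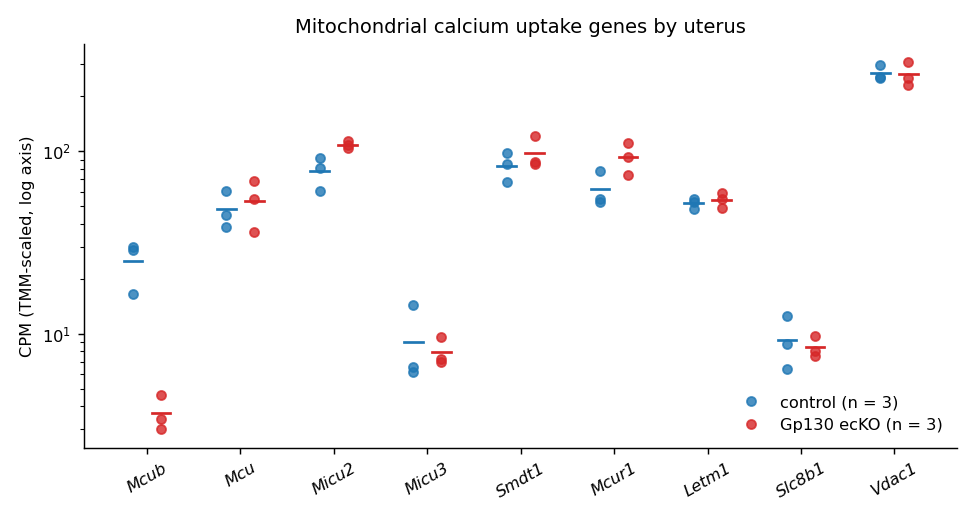
Level of each mitochondrial calcium gene in each uterus, in CPM on a log axis. Points are uteri (3 control, 3 *Gp130* ecKO) and bars are group means. The *Mcub* values of *Gp130* ecKO (2.98 to 4.61) lie below those of the control (16.4 to 30.02), those of *Micu2* lie above, and the groups overlap for the other 7 genes.

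*Mcub* was the only 1 of the 9 genes that met the calling rule of a false discovery rate (FDR, Benjamini-Hochberg over all genes) under 0.05 and more than 2-fold, beside 26 of all 16605 genes (0.157%). Since *Mcub* was chosen on this contrast, nothing is read from that count. The call, though not the size of the difference, was lost when control 1, control 3 or any 1 of the *Gp130* ecKO uteri was left out. It was also lost with the legacy form of the same test and with the replicate number fitted as a block. When control 2 was left out, 897 genes were called. Control 2 had the lowest *Mcub* level of its group.

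The rest of the channel complex did not share the *Mcub* pattern. *Mcu*, which encodes the conducting subunit, was at 38.5, 60.3 and 44.9 CPM in the control and at 36.0, 68.9 and 54.8 CPM in *Gp130* ecKO. Its lowest and its highest uterus were both *Gp130* ecKO, and its log2 fold change of 0.15 (SE 0.28) changed sign when single uteri were left out (-0.07 to 0.39). *Micu2*, which encodes a calcium-sensing partner that holds the channel closed at low calcium, was at 81.2, 91.4 and 60.8 CPM in the control and at 114, 104 and 108 CPM in *Gp130* ecKO. Every *Gp130* ecKO uterus lay above every control, and the log2 fold change of *Micu2* was 0.48 (SE 0.19; 0.33 to 0.64 with each uterus left out). Of all genes tested, 15.7% lay higher in *Gp130* ecKO without overlap in this way and 15.6% lower, so that 1 higher of the 8 other genes is close to the background.

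*Micu3*, a related regulator best known from brain and muscle, was low and was set apart by a single control. It was at 6.15, 6.59 and 14.3 CPM in the control and at 9.59, 7.27 and 6.96 CPM in *Gp130* ecKO, with a log2 fold change of -0.17 (SE 0.39) that became 0.31 without control 3. *Smdt1* was at 84.6, 97.6 and 67.7 CPM in the control and at 87.6, 85.3 and 121 CPM in *Gp130* ecKO (estimated log2 fold change 0.23, SE 0.21, groups overlapping). No window of 75 bases in the main *Smdt1* transcript occurs in another gene on its strand, and 42.4% of them occur on the opposite strand in *Gm62022*. *Mcur1*, which encodes an inner membrane protein that helps assemble the uniporter, was at 54.8, 78.0 and 52.9 CPM in the control. It was at 111, 92.4 and 74.0 CPM in *Gp130* ecKO, and only control 2 and *Gp130* ecKO 3 kept the groups from separating. The log2 fold change of *Mcur1*, 0.58 (SE 0.23; 0.43 to 0.81), was the highest of the 9.

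The genes for other routes across the mitochondrial membranes differed by less. *Letm1*, an ion exchange gene of the inner membrane, was at 48.2, 54.4 and 52.7 CPM in the control and at 48.8, 54.9 and 58.7 CPM in *Gp130* ecKO (estimated log2 fold change 0.06, SE 0.15). *Slc8b1*, which encodes the sodium/calcium exchanger that lets calcium out of the matrix, was at 12.5, 8.75 and 6.40 CPM in the control and at 9.68, 7.54 and 8.0 CPM in *Gp130* ecKO (estimated log2 fold change -0.14, SE 0.31). *Vdac1*, the outer membrane channel, was the most abundant on this scale, at 298, 252 and 254 CPM in the control and 253, 230 and 307 CPM in *Gp130* ecKO (estimated log2 fold change -0.03, SE 0.18). All 3 overlapped between the groups. With each uterus left out, the log2 fold changes of *Slc8b1* (-0.34 to 0.17) and *Vdac1* (-0.12 to 0.08) changed sign. The log2 fold changes of the 8 genes other than *Mcub* ran from -0.17 to 0.58 with a median of 0.11, while the median over all genes tested was -0.05, and 7 of the 8 overlapped.

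**Figure D2:**
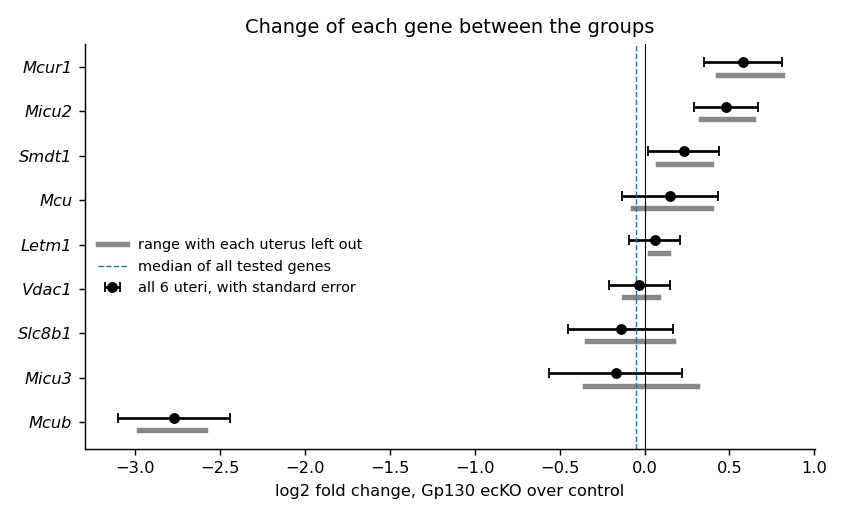
Log2 fold change of *Gp130* ecKO over control for each of the 9 genes. Black points and bars are the estimate from 6 uteri and its SE, grey bars the range when each uterus is left out, and the dashed line is the median of all genes tested (-0.05). *Mcub* stands at -2.77 and the other 8 between -0.17 and 0.58.

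Levels of different genes were compared on the deposited TPM, which is divided by transcript length. In the control, *Smdt1* (228 ± 19.2 TPM) and *Vdac1* (213 ± 13.2 TPM) were highest, followed by *Micu2* (45.1 ± 7.95 TPM) and *Mcub* (41.4 ± 18.7 TPM). *Mcur1* (23.4 ± 2.14 TPM), *Mcu* (22.6 ± 5.54 TPM) and *Letm1* (17.1 ± 2.36 TPM) came next, and *Slc8b1* (6.19 ± 2.84 TPM) and *Micu3* (5.09 ± 2.88 TPM) were lowest (SD, n = 3). Neighbors in this order overlapped, except that *Vdac1* lay above *Micu2* and *Letm1* above *Slc8b1* in every pairing of uteri. *Mcub* thus ranked 4th of 9 in the control, with a spread that reached from 24.5 to 61.4 TPM. With CPM divided by the longest listed transcript of each gene instead, an alternative added after the data were seen, *Mcub* ranked 6th in the control, below *Mcu* and *Mcur1*, and 9th in *Gp130* ecKO.

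In *Gp130* ecKO *Mcub* was at 5.67 ± 1.06 TPM and ranked 8th, between *Slc8b1* (6.48 ± 1.90 TPM) and *Micu3* (4.72 ± 1.02 TPM), with ranges that overlapped both. The order of the other 8 genes was the same as in the control, and here *Micu2* lay above *Mcur1* without overlap as well. *Micu2* was at 66.6 ± 6.35 TPM, *Mcur1* at 33.7 ± 6.63 TPM and *Mcu* at 26.6 ± 9.81 TPM. On TPM the groups did not overlap for *Micu2*, *Mcur1* and *Vdac1*, which were all higher in *Gp130* ecKO. On this scale 16.7% of all genes tested lay higher without overlap and 12.1% lower. The *Vdac1* separation was absent from its CPM, and the transcript length that RSEM assigned to *Vdac1* ran from 1628 to 1825 bases in the control and from 1421 to 1686 bases in *Gp130* ecKO.

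The share of *Mcub* among the pore transcripts differed between the groups on every measure tried. As TPM of *Mcub* over the TPM of *Mcub* plus *Mcu*, it was 69.2%, 46.5% and 73.0% in the control and 27.6%, 12.7% and 16.3% in *Gp130* ecKO. The means were 62.9% ± 14.3 and 18.9% ± 7.81 (SD, n = 3 each), and the groups did not overlap. *Mcub* exceeded *Mcu* in controls 1 and 3 but not in control 2, and *Mcu* exceeded *Mcub* in all 3 *Gp130* ecKO uteri. The ratio of *Mcu* to *Mcub* TPM averaged 0.65 in the control and 4.88 in *Gp130* ecKO. The sum of both pore genes was 64.0 ± 17.4 TPM in the control and 32.2 ± 9.29 TPM in *Gp130* ecKO, without overlap. On CPM, an alternative added after the data were seen, the groups overlapped, with sums of 68.5, 76.7 and 73.7 in the control and 40.6, 72.3 and 57.7 in *Gp130* ecKO. With CPM divided by the longest listed transcript of each gene, also added afterwards, they did not overlap but lay close (25.4 to 27.5 and 14.3 to 25.3 CPM per kb).

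The size of this share depended on the length given to *Mcub*. RSEM lengths of *Mcub* ran from 725 to 1040 bases among the uteri, whereas its 4 listed transcripts run from 365 to 2502 bases. For *Mcu* the RSEM length stayed between 2823 and 2868 bases. With reads not divided by length, the share of *Mcub* was 34.7% ± 11.8 in the control and 7.07% ± 3.72 in *Gp130* ecKO. With the longest listed transcript of each gene as its length, an alternative added after the data were seen, the shares were 37.9% ± 12.4 and 8.04% ± 4.18. On these measures *Mcub* was below *Mcu* in every uterus, so which pore gene was the more abundant in the control rests on the division of reads among *Mcub* isoforms.

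**Figure D3:**
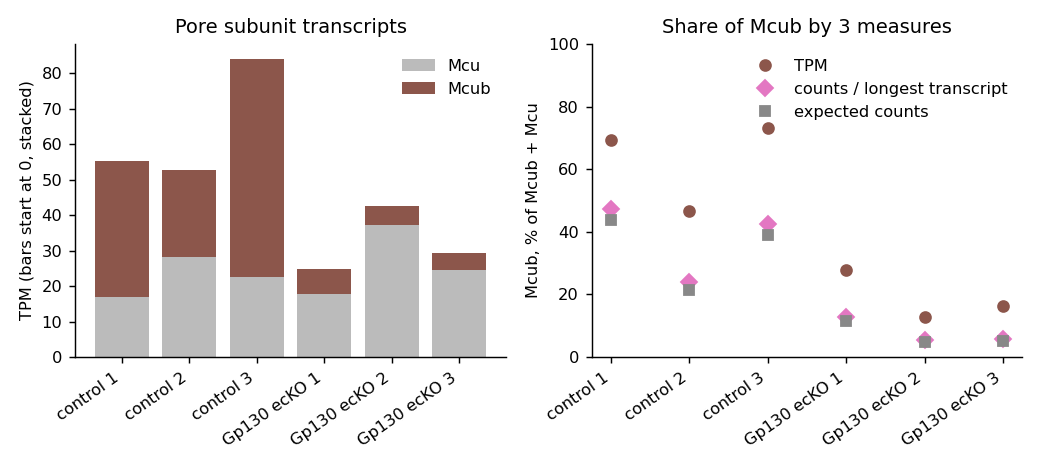
Left, TPM of *Mcu* and *Mcub* stacked for each uterus, with bars from 0. Right, *Mcub* as a percent of *Mcub* plus *Mcu* in each uterus from TPM, from expected counts and from counts divided by the longest listed transcript. On all 3 measures the *Gp130* ecKO uteri lie below the controls, with means of 18.9% against 62.9% by TPM and 7.07% against 34.7% by counts.

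The regulators were also set against *Mcu* within each uterus, on TPM. *Smdt1* was 10.4-fold *Mcu* in the control (8.76 to 12.2) and 10.2-fold in *Gp130* ecKO (6.67 to 12.5). *Micu2* was 2.05-fold *Mcu* in the control (1.65 to 2.60) and 2.75-fold in *Gp130* ecKO (1.88 to 3.95), and *Mcur1* was 1.06-fold (0.91 to 1.25) and 1.40-fold (0.96 to 2.18). The ranges of all 3 ratios overlapped between the groups. The ratio of *Mcub* to *Mcu* separated the groups, but *Mcub* was chosen for its lower level in this contrast. Nothing is therefore read from its standing apart from the other ratios.

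Marker genes of the cell types of the uterus were summed in each uterus, and in whole tissue fewer cells of a type and less RNA per cell cannot be told apart. None of the 48 markers passed an FDR of 0.05 in edgeR's quasi-likelihood test or its legacy form, and 13 passed in DESeq2 (13.9% of all genes). At an unadjusted p under 0.05 in the quasi-likelihood test, 4 of the 48 were higher and 14 lower, beside 12.1% higher and 12.9% lower of all genes. All 6 endothelial markers and all 8 stromal markers had negative log2 fold changes, 5 of each without overlap, beside 15.6% lower and 15.7% higher of all genes without overlap. Their summed levels were 353 to 846 CPM in the control and 190 to 342 CPM in *Gp130* ecKO for endothelium, and 2748 to 3141 and 1394 to 2010 CPM for stroma. The median log2 fold change was -1.25 for the endothelial and -0.79 for the stromal markers. Of 6 macrophage markers 5 were lower, 1 without overlap (summed 113 to 156 CPM in the control, 63.6 to 125 CPM in *Gp130* ecKO). Of 6 markers of other leukocytes all were lower, 2 without overlap (21.2 to 46.5 and 8.87 to 31.4 CPM). All 4 hemoglobin genes were lower with overlap (174 to 334 and 39.5 to 315 CPM). Epithelial markers were higher for 6 of 7, 4 without overlap (2070 to 2988 and 4293 to 5884 CPM). Markers of glands (108 to 1063 and 154 to 8684 CPM) and of smooth muscle (487 to 2029 and 367 to 2292 CPM) overlapped. Of these markers, *S100a9* was at 0 in *Gp130* ecKO 1 and 2 and *S100a8* in *Gp130* ecKO 1, and all others had reads in every uterus. The 2 leukocyte markers without overlap were these neutrophil genes, at 0.85, 0.77 and 0.40 CPM (*S100a8*) and 2.43, 2.39 and 1.0 CPM (*S100a9*) in the control and at most 0.12 and 0.54 CPM in *Gp130* ecKO, with log2 fold changes of -3.24 (SE 0.75) and -3.42 (SE 0.97). That of *S100a9* was -8.49 without *Gp130* ecKO 3, the only *Gp130* ecKO uterus with reads of this gene, a fitted value against a group at 0 that depends on the prior count. The part of these differences in the *Mcub* result was not tested.

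*Il6st*, the gene that was deleted, was at 631, 678 and 452 CPM in the control and at 388, 350 and 362 CPM in *Gp130* ecKO. All *Gp130* ecKO uteri were below all controls, with a log2 fold change of -0.68 (SE 0.21) and an edgeR quasi-likelihood FDR of 0.12, which ran from 0.0352 to 0.3 over the alternatives. Depth ran from 13960748 reads assigned to genes in control 3 to 25906443, and no library of a group repeated another.

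The genes around mitochondrial calcium were then counted in 6 lists of 97 genes written by function, all of which could be tested. None passed an FDR of 0.05 in edgeR's quasi-likelihood test or in its legacy form. In DESeq2 13 of the 97 passed, beside 2212 of 15916 genes (13.9%). At an unadjusted p under 0.05, 14 were higher (14.4%) and 6 lower (6.19%), beside 12.1% higher and 12.9% lower of all genes. With each uterus left out, these counts ran from 9 to 17 higher and from 3 to 12 lower. Without overlap between the groups, 16 were higher (16.5%) and 11 lower (11.3%), beside 15.7% and 15.6% of all genes. Values of single genes below are log2 fold changes with SE and the FDR of edgeR's quasi-likelihood test.

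Among 17 genes of calcium-sensitive mitochondrial metabolism, 6 were higher and none lower at an unadjusted p under 0.05, and the median log2 fold change was 0.17. *Pdpr*, which encodes the regulatory subunit of pyruvate dehydrogenase phosphatase, was at 8.01, 10.1 and 7.27 CPM in the control and at 22.3, 26.0 and 21.4 CPM in *Gp130* ecKO. The log2 fold change of *Pdpr* was 1.46 (SE 0.23) with an edgeR FDR of 0.0548, and 3.5e-07 to 0.172 over the alternatives. *Pdp2*, a catalytic subunit of that phosphatase, was at 15.2, 63.6 and 25.4 CPM in the control and at 131, 144 and 113 CPM in *Gp130* ecKO (estimated log2 fold change 1.90, SE 0.48, edgeR FDR 0.0947, alternatives 0.00293 to 0.252). The log2 fold change of *Pdp2* ran from 1.56 to 2.71 with each uterus left out. *Pdpr* and *Pdp2* were higher in every *Gp130* ecKO uterus than in any control. *Pdp1*, the other catalytic subunit gene of the phosphatase, had a log2 fold change of the opposite sign, -0.52 (SE 0.26; -0.68 to -0.34 with each uterus left out), and averaged 16.1 CPM in the control and 11.2 CPM in *Gp130* ecKO with overlapping groups. It is named here after its values were seen. Every *Gp130* ecKO uterus was also above every control for *Gpd2*, the calcium-sensitive glycerol phosphate dehydrogenase (34.1 to 57.4 CPM on average, log2 fold change 0.75, SE 0.21, edgeR FDR 0.103), and *Slc25a13*, a calcium-sensitive aspartate/glutamate carrier (34.7 to 62.7 CPM, log2 fold change 0.86, SE 0.25, edgeR FDR 0.112).

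Of 21 genes of the endoplasmic reticulum calcium stores and their contacts with mitochondria, 5 were higher and none lower at an unadjusted p under 0.05 (median log2 fold change 0.28). *Fundc1*, an outer membrane protein of contact sites and mitophagy, was at 32.5, 51.4 and 27.8 CPM in the control and at 84.2, 67.7 and 60.1 CPM in *Gp130* ecKO (estimated log2 fold change 0.92, SE 0.26, edgeR FDR 0.111). *Pdzd8*, a tether of the endoplasmic reticulum, also did not overlap (log2 fold change 0.58, SE 0.20, edgeR FDR 0.142). *Itpr3*, a release channel of the store, overlapped by control 1 and *Gp130* ecKO 3 (log2 fold change 0.75, SE 0.27, edgeR FDR 0.149). *Atp2a3*, a calcium pump that fills the store, overlapped and was highest at 207 CPM in *Gp130* ecKO 3 (log2 fold change 1.35, SE 0.54, edgeR FDR 0.181), and its log2 fold change ran from 0.63 to 1.71 with each uterus left out.

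Of 11 other mitochondrial calcium genes, 2 were higher and none lower at an unadjusted p under 0.05 (median log2 fold change 0.20). These were the inner membrane protease genes *Yme1l1*, at 128, 118 and 120 CPM in the control and 181, 167 and 158 CPM in *Gp130* ecKO (estimated log2 fold change 0.47, SE 0.14, edgeR FDR 0.118), and *Spg7* (log2 fold change 0.50, SE 0.18, edgeR FDR 0.15). The groups overlapped for *Vdac2*, an outer membrane channel like *Vdac1* (log2 fold change 0.31, SE 0.18), and for *Slc25a23*, a calcium-sensitive ATP and phosphate carrier (0.45, SE 0.32).

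The 13 protein-coding genes of the mitochondrial genome had a median log2 fold change of -0.51, with 2 lower and none higher at an unadjusted p under 0.05. Their summed level was 39180 to 48880 CPM in the control and 22930 to 38530 CPM in *Gp130* ecKO, which did not overlap but lay close. The highest level in this sum was that of *mt-Co1*, at 18720 CPM in the control and 10730 CPM in *Gp130* ecKO on average. Its log2 fold change was -0.80 (SE 0.64, edgeR FDR 0.453), without overlap. *mt-Atp6*, an ATP synthase subunit, was at 581, 464 and 271 CPM in the control and at 233, 144 and 242 CPM in *Gp130* ecKO (estimated log2 fold change -1.09, SE 0.33, edgeR FDR 0.115). *mt-Co3*, a cytochrome oxidase subunit, was at 959, 874 and 1909 CPM and at 300, 242 and 816 CPM (log2 fold change -1.46, SE 0.53, edgeR FDR 0.156). The log2 fold change of *mt-Co3* ran from -2.17 to -1.02 with each uterus left out. The complex I genes *mt-Nd4* (log2 fold change -0.84, SE 0.38) and *mt-Nd4l* (-0.54, SE 0.27) had edgeR FDR values of 0.217 and 0.247.

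The 23 nuclear genes of mitochondrial content were spread around 0 (median log2 fold change -0.10), with 3 lower and none higher at an unadjusted p under 0.05. Those 3 were the chaperonin genes *Hspe1* (216 to 108 CPM on average, log2 fold change -1.0, SE 0.27, edgeR FDR 0.103) and *Hspd1* (483 to 306 CPM, log2 fold change -0.66, SE 0.23, edgeR FDR 0.142) and the protein import gene *Timm44* (-0.45, SE 0.18, edgeR FDR 0.18). *Cycs*, cytochrome c, overlapped (log2 fold change -0.68, SE 0.29, edgeR FDR 0.201). Their summed level overlapped between the groups, at 4555 to 5809 CPM in the control and 4586 to 6330 CPM in *Gp130* ecKO.

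Of 12 genes of mitochondrial biogenesis, 1 was higher and 1 lower at an unadjusted p under 0.05 (median log2 fold change 0.03). *Esrrg*, an orphan nuclear receptor gene, was higher at 0.29 to 1.08 CPM on average (log2 fold change 1.79, SE 0.55, edgeR FDR 0.118). *Pprc1*, a coactivator gene, was lower at 41.4 to 22.6 CPM (log2 fold change -0.87, SE 0.28, edgeR FDR 0.123). *Tfb1m*, a mitochondrial ribosomal RNA methyltransferase gene (log2 fold change 0.76, SE 0.39), and *Esrra*, a nuclear receptor gene (0.41, SE 0.31), overlapped.

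**Figure D4:**
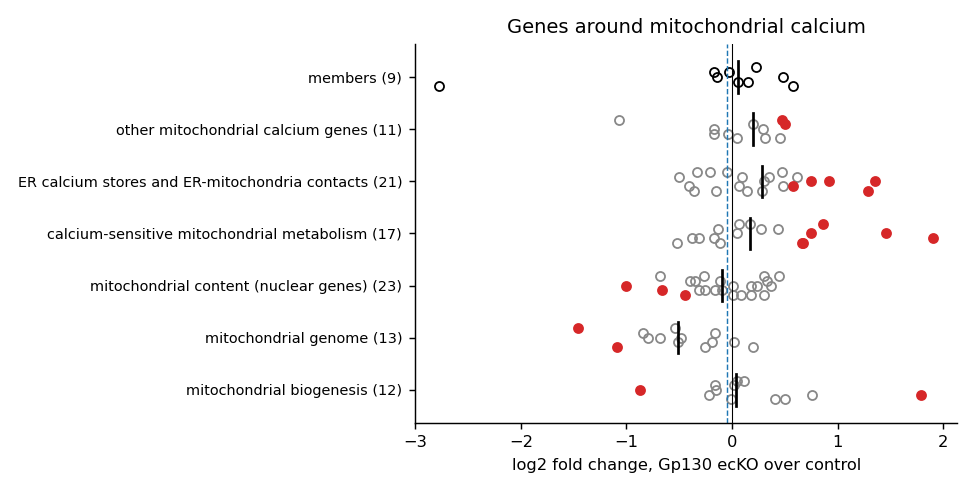
Log2 fold change of each gene of the 9 described genes and of the 6 lists, with the number of genes in parentheses. Filled red points have an unadjusted p under 0.05 in edgeR's quasi-likelihood test (not shown for the 9), vertical bars are list medians, and the dashed line is the median of all genes tested (-0.05). *Mcub*, chosen for its lower level in this contrast, is at -2.77, so its place below the list genes is not a result. The median of the mitochondrial genome is -0.51.

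Position was not used to choose the genes, so the genes around *Mcub* were tested. Of 20 annotated genes that start within 500 kb, 8 could be tested. None passed an FDR of 0.05 in edgeR's quasi-likelihood test or its legacy form, 1 of the 8 passed in DESeq2 (13.9% of all genes), and 1 had an unadjusted p under 0.05, beside 12.1% higher and 12.9% lower of all genes. Without overlap, 1 was higher and 1 lower, beside 15.7% and 15.6% of all genes. The gene with an unadjusted p under 0.05 was *Gar1*, which encodes a component of box H/ACA ribonucleoproteins and starts 138.8 kb from *Mcub*. It was at 64.7, 44.96 and 56.3 CPM in the control and at 31.2, 25.7 and 28.6 CPM in *Gp130* ecKO, without overlap (log2 fold change -0.96, SE 0.19, edgeR FDR 0.0717, alternatives 0.00176 to 0.199). *Egf*, a growth factor gene 214.8 kb away, was higher without overlap at very low levels (0.30 to 0.70 CPM on average, log2 fold change 1.29, SE 0.60, edgeR FDR 0.23). *Sec24b*, on the other side of *Mcub*, differed by -0.12 (SE 0.23) on the log2 scale, and the median over the 8 genes was -0.15.

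**Figure D5:**
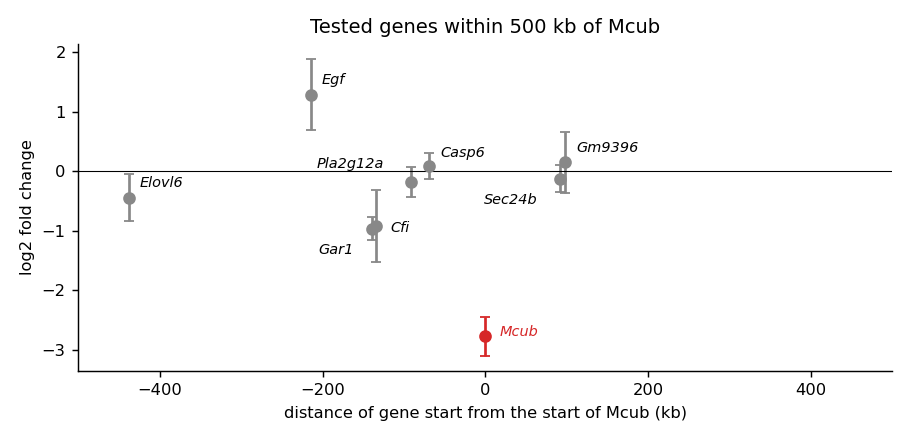
Log2 fold change (*Gp130* ecKO over control) of *Mcub* and of the 8 tested genes within 500 kb, against the distance of each gene's start from that of *Mcub* in kb. Bars are SE. *Mcub* is at -2.77, *Gar1* at -0.96 and *Egf* at 1.29.

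The promoter windows of RefSeq (build GRCm38.p6; 250 bases before to 50 after each start) held 7 of the 9 genes in 8 windows. The letters TTCNNNGAA, the palindromic motif of STAT factors, which reads the same on both strands, occurred in none of these 8 and in 8.3% of all 32851 windows. These letters are thus not in these windows, which says nothing of binding elsewhere.

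The genes whose level followed *Mcub* most closely over the 6 uteri were picked by Pearson's r of log2(CPM + 0.5) among 14762 genes with a mean of at least 1 CPM. *Coch*, which encodes the secreted protein cochlin, had the highest (r = 0.997), at 249, 89.3 and 259 CPM in the control and 5.56, 3.73 and 1.70 CPM in *Gp130* ecKO. Like *Mcub*, *Coch* was lowest among the controls in control 2 and lowest of all in *Gp130* ecKO 3. The next were *Prpf31*, a splicing factor gene (0.993), *Polg2*, the accessory subunit of the mitochondrial DNA polymerase (0.993), *Eef1ece2* (0.992), *Timm8a1*, a mitochondrial import chaperone (0.992), *Sbno2* (0.991), *Fam72a* (0.987) and *Armcx6* (0.985). All 8 were lower in every *Gp130* ecKO uterus than in any control, beside 15.6% of all genes tested. This follows from the pick, since *Mcub* itself did not overlap, and nothing is read from it. The log2 fold changes of the 8 ran from -0.30 for *Prpf31* to -5.77 for *Coch*. These 6 points fall into 2 groups and share libraries and scaling, so the values describe likeness in these uteri alone. Among the 9 genes, r with *Mcub* was -0.86 for *Micu2*, -0.79 for *Mcur1* and -0.59 for *Smdt1*, and between -0.48 and 0.22 for the other 5.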

How the data were processed

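The authors made strand-specific poly(A) libraries from whole uteri, trimmed the reads (fastp 0.23.2), removed ribosomal RNA, mapped to GRCm39 (STAR 2.7.10a) and estimated genes with RSEM 1.3.3, by the submitters' processing notes and the study's methods. They deposited the expected count, TPM and length of each gene per uterus. The annotation version and the use of strand in counting are not given in the sources used here. RSEM divides shared reads by its model.

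Here expected counts were rounded (13.2% were not whole) and 3 *Gp130* ecKO were compared with 3 control uteri in edgeR 4.0.16 (R 4.3.3) with TMM, filterByExpr and the quasi-likelihood F test, adjusted by Benjamini-Hochberg over all 16605 genes. SE is the log2 fold change over the square root of F. Names and positions came from GENCODE M39, which held 56017 of 56748 identifiers. In simulated counts of this comparison for 16605 genes, 119 of 200 genes changed 4-fold were called, with 12 unchanged ones.

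The genes and lists were chosen with earlier results of these data known. Named are the 9 genes, per list those passing the FDR or else the 4 with the smallest p, neighbors of *Mcub* that passed or did not overlap, and the 8 genes most like *Mcub*. *Casp6* and *Sec24b* were named in addition for their position. *Pdp1*, *mt-Co1*, *S100a8*, *S100a9* and the single epithelial markers were named after their values were seen. Alternatives were the legacy form, RLE scaling, no filter, DESeq2 1.42.0, the replicate block and each uterus left out, with TPM and another length added after seeing the data.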

Additional observations from a re-analysis of the deposited data

How the results depend on the processing

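Over 12 settings, 106 of 108 log2 fold changes of the 9 genes stayed within 1 SD, and *Mcub* stayed between -2.98 and -2.59. The exceptions were *Letm1* at 0.27 and *Vdac1* at 0.22 on the deposited TPM. The rule that called 26 genes, 1 of them *Mcub*, called 7 in the legacy form and 105 with no filter on low counts. DESeq2 called 1542. With the replicate block 6 were called. None of the 9 (0) was called in the legacy form or with the block. With each uterus left out, 1 (without *Gp130* ecKO 3) to 897 (without control 2) genes were called, and 0 to 1 of the 9. The deviations of same-numbered uteri correlated at 0.104, 0.069 and -0.196, and those of differently numbered uteri at -0.311 to 0.22. With 3 uteri per group these values cannot tell whether the replicate numbers pair the uteri.

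The share of *Mcub* among pore transcripts was 62.9% and 18.9% by TPM, 34.7% and 7.07% by counts, and 37.9% and 8.04% by the longest transcript. The summed pore genes in *Gp130* ecKO over control were 0.503 by TPM, 0.779 by CPM and 0.748 by the longest transcript, by which *Mcub* ranked 6 and not 4 of 9 in the control. With each uterus left out it ran from 57.9% to 71.1% in the control and from 14.5% to 22.0% in *Gp130* ecKO. Of the *Mcub* neighbors, 1 had an unadjusted p under 0.05, 2 with no filter, and 1 to 2 (2 without *Gp130* ecKO 3) with each uterus left out. Of the list genes, 14 were higher at an unadjusted p under 0.05, and 9 (without *Gp130* ecKO 1) to 17 with each uterus left out. The 6 lower ones became 3 (without control 3 or *Gp130* ecKO 2) to 12 (without *Gp130* ecKO 3). The cause was not tested. With RLE scaling the median log2 fold change moved by 0.015. *Mcub* in *Gp130* ecKO rests on 72 to 102 reads per uterus.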
